A study of Homo sapiens with 12 samples.

Results

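The insulin-like growth factor binding proteins (IGFBPs) are described here across a pair of kidney cancer lines in which FoxO1 or FoxO3 was switched on. The family has 7 genes, IGFBP1 to IGFBP7, out of 19775 genes on the array that had a probe set annotated to 1 symbol only. They had 16 such probe sets of 41091, and each gene was read from the one with the highest mean over the 12 arrays. The others served as a check. All 7 genes reached the median of the arrays (log2 6.67) in at least 2 arrays and were among the 14283 genes tested. IGFBP3, IGFBP6 and IGFBP7 reached it in all 12 arrays, and the other 4 genes only in some: IGFBP1 in 3 arrays, all of FoxO lines with 4OHT, IGFBP2 in the 6 RCC4 arrays, IGFBP4 in 2 UMRC2 arrays and IGFBP5 in 3 RCC4 arrays.

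IGFBPs are secreted proteins that bind the insulin-like growth factors IGF1 and IGF2, carry them in blood and tissue fluid and control how much reaches the receptor IGF1R. Proteases such as pappalysin-1 (PAPPA) cut some IGFBPs and free the growth factor. Insulin and IGF signalling activates AKT, which phosphorylates FoxO transcription factors and keeps them out of the nucleus, and IGFBP1 is a textbook FoxO target in liver, where insulin lowers it.

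RCC4 and UMRC2 are established human kidney cancer lines. Each was made to carry stably FoxO1(TA)-ERT2 or FoxO3(TA)-ERT2, a FoxO with its AKT sites replaced by alanine and joined to ERT2, a modified estrogen receptor part that holds it in the cytoplasm until 4-hydroxytamoxifen (4OHT) is given. The control lines, called EV for empty vector, were labelled as carrying ERT2 alone. Each of the 6 engineered lines, all grown under puromycin, received 100 nM 4OHT or the vehicle ethanol for 12 h, with 1 array per combination. The labels do not say whether an engineered line is 1 clone or a pool, nor which promoter drives the construct.

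The 12 arrays form 6 pairs of vehicle and 4OHT, and the lines serve as the replicates of a construct (n = 2). Values are log2 of quantile-normalised intensity, with a floor at log2 4.20. A level under log2 7.84, the 95th percentile of 107 olfactory receptor probe sets, is called near background. The deposited median intensity was 121.2 to 138.7 in 5 RCC4 arrays, and 71.1 to 88.7 in the UMRC2 arrays. The RCC4 FoxO3 array with 4OHT stood apart from its line at 74.6, so the IGFBP calls, and the calls among the other listed genes under FoxO, are also given without that pair. The median of 5 ESR1 probe sets that detect the fusions was log2 9.22 to 13.23 in the 4 fusion lines with vehicle, against 5.28 and 4.63 in the EV lines, where it was near background despite the ERT2 label. Of the 6 kidney cancer line markers measured, 5 (PAX8, VIM, KRT8, KRT18 and MET) were above the near-background level in all 12 arrays. Of the 4 hepatocyte markers, ALB, TTR and APOB were above it in none and APOA1 in 1 array (7.88 in RCC4 FoxO3 with vehicle). The endothelial marker PECAM1 was above it in all 12 arrays, and VWF, CDH5 and KDR in none. Of the 4 fibroblast markers, COL1A1 was above it in all 12 arrays, DCN in 9, PDGFRB in 1 and LUM in none. The 3 leukocyte markers measured were above it in none.

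In the fit over both lines, IGFBP1 was higher and IGFBP3 lower under FoxO than EV with 4OHT, and no other IGFBP passed the test. Only the 2 RCC4 FoxO arrays with 4OHT had IGFBP1 above the near-background level, and every UMRC2 array was under it. IGFBP1 entered the test only through FoxO arrays with 4OHT, so its call is not independent of the filter. Of the 7 genes, 1 rose and 1 fell, where 7.79% of all genes tested passed (3.09% higher, 4.7% lower). The median difference over the 7 genes was log2 0.08, beside -0.05 over all genes tested. The plot of IGFBP levels in the 12 arrays shows both changes and how the lines differ before any 4OHT.

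**Figure D1:**
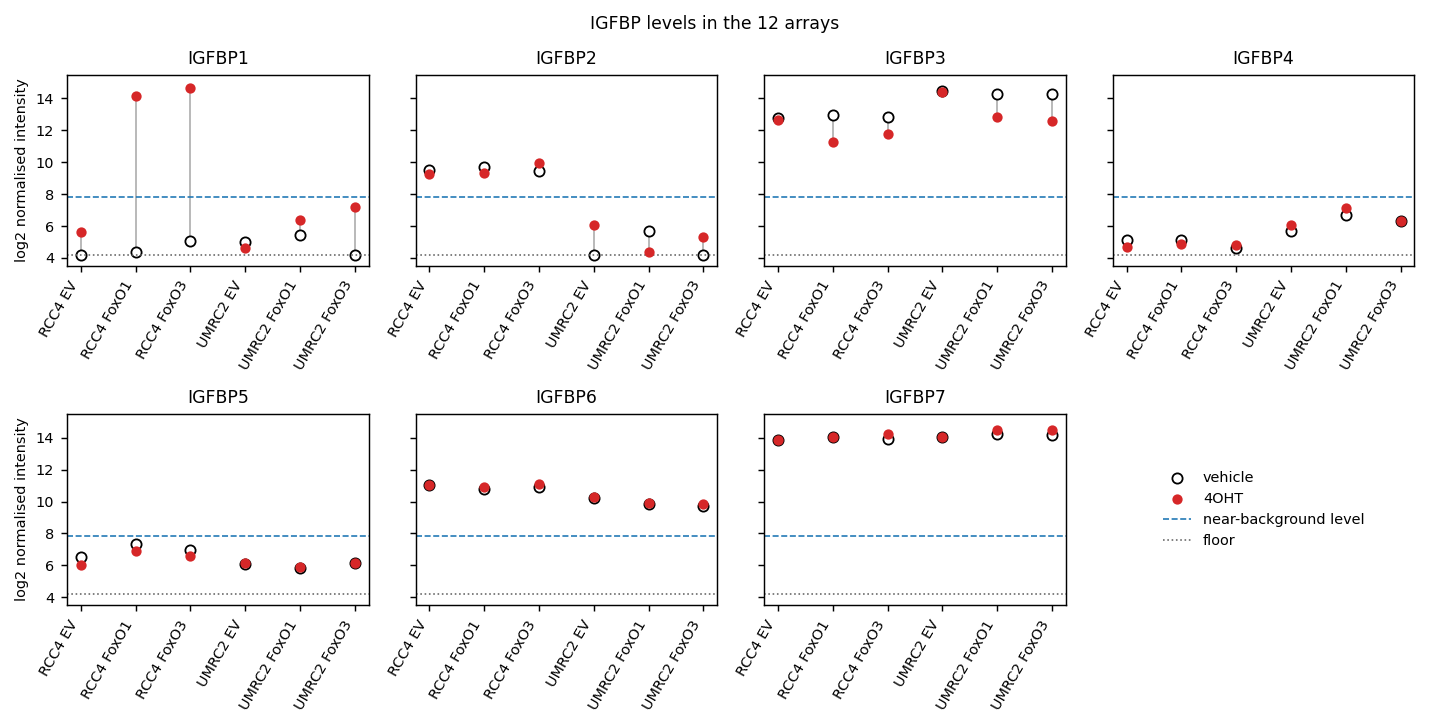
Log2 normalised intensity (y axis) of each IGFBP gene in the 6 engineered lines (x axis), with vehicle (open circles) and with 4OHT (red circles), 1 array each; the dashed line is the near-background level (7.84) and the dotted line the floor (4.20). IGFBP1 reaches 14.17 and 14.62 in the RCC4 FoxO lines with 4OHT and is under the dashed line in the other 10 arrays, while IGFBP3 drops with 4OHT in all 4 FoxO lines.

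IGFBP1, a small circulating binding protein that insulin regulates acutely, was near background in 10 of the 12 arrays. In RCC4 its level with vehicle and then with 4OHT was 4.20 and 5.61 in EV, 4.35 and 14.17 in FoxO1, and 5.03 and 14.62 in FoxO3. In UMRC2 the same values were 4.99 and 4.62 in EV, 5.44 and 6.38 in FoxO1, and 4.20 and 7.21 in FoxO3. Both RCC4 FoxO arrays with 4OHT stand far above the rest, while every UMRC2 array stays near background. As deposited, the linear intensities in those RCC4 arrays were 24686.6 with FoxO1 and 19990.9 with FoxO3, against 26.6 and 39.2 with vehicle.

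Since the vehicle levels are not distinguishable from background, the RCC4 increase is a bound: at least 80.3-fold with FoxO1 and at least 109.9-fold with FoxO3, taking the near-background level for vehicle. The response minus the EV response of the same line was log2 8.42 for FoxO1 and 8.19 for FoxO3 in RCC4. In UMRC2 the values were 1.31 and 3.37. All of these differences are taken from vehicle and EV levels near background or at the floor, so their exact size is not interpretable, and in UMRC2 both arrays of each pair are near background.

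Over both lines IGFBP1 was higher under FoxO than EV by log2 5.32 ± 1.24 (limma SE, adjusted p = 0.0437). With no filter on dim genes the same difference had an adjusted p of 0.307 in limma. IGFBP1 was higher in 4 of 4 FoxO pairs relative to EV, as were 15.7% of genes tested, and its UMRC2 pairs lie between near-background values. For FoxO3 alone the difference was 5.78 ± 1.43 (adjusted p = 0.0319), and 16.6% of all genes tested passed there (6.61% higher, 10% lower), with IGFBP1 and IGFBP3 the 2 of 7 IGFBPs. For FoxO1 alone it was 4.86 ± 1.43 (adjusted p = 0.338), where 0.084% of genes and 0 of 7 IGFBPs passed in limma. There IGFBP1, IGFBP2 and IGFBP3 were the 3 at an unadjusted limma p under 0.05, IGFBP2 with only near-background values in UMRC2. The FoxO1 and FoxO3 comparisons share their EV arrays. The call for FoxO is lost without the RCC4 EV pair (2.34, adjusted p = 0.16), the RCC4 FoxO1 pair (4.15, adjusted p = 0.0578) or the RCC4 FoxO3 pair (5.00, adjusted p = 0.0596), and the difference is 8.30 without the UMRC2 EV pair. The call for FoxO3 is lost without the RCC4 EV pair (2.80, adjusted p = 0.0801) or the RCC4 FoxO3 pair (5.15, adjusted p = 0.126), and FoxO1 passes without the UMRC2 EV pair (7.84, adjusted p = 0.0263). The fitted size also rests on the floor: it is 3.40 without one, since the RCC4 EV vehicle intensity was 1.3, and 2.59 (adjusted p = 0.208) as a mean of the gene's probe sets.

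The FoxO response of IGFBP1 was log2 5.96 ± 1.35 larger in RCC4 than in UMRC2 (unadjusted p = 0.0052, limma), which did not pass after adjustment over all genes (adjusted p = 1). It was 1.72 ± 1.62 (limma, unadjusted p = 0.33) without the floor and 4.00 ± 1.41 (unadjusted p = 0.0321) as a mean of the gene's probe sets. In that comparison 0% of genes passed, and 338 had an unadjusted p under 0.05, IGFBP1 alone among the IGFBPs. The FoxO1 and FoxO3 pairs of a line stand as its replicates there, with 1 EV pair per line. Its errors and p-values therefore measure the spread between the FoxO1 and FoxO3 responses. Between the 4OHT arrays themselves, RCC4 was at least 80.3-fold above UMRC2 with FoxO1 and at least 109.9-fold with FoxO3. The second IGFBP1 probe set read 4.20 to 5.97 and was near background in all 12 arrays, so it did not show the RCC4 increase.

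**Figure D2:**
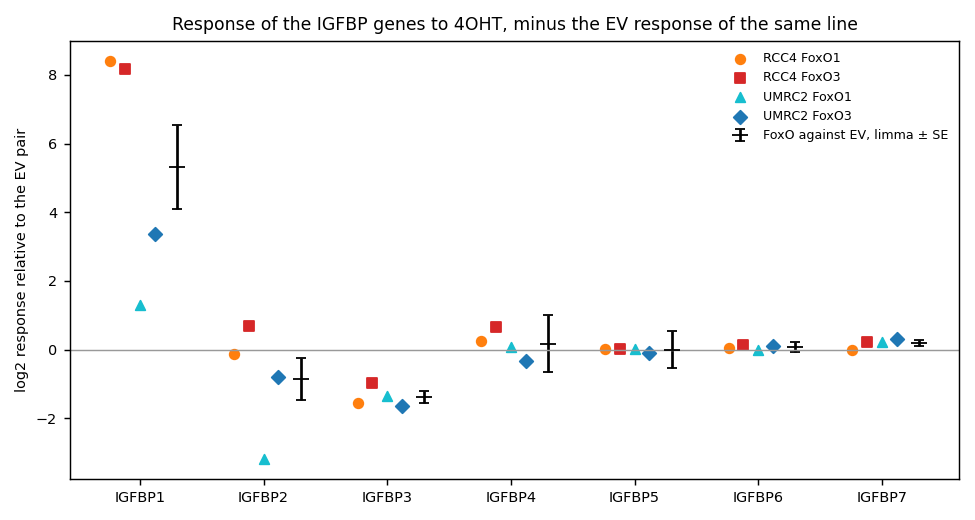
Log2 response to 4OHT minus the EV response of the same line (y axis) for the 7 IGFBP genes (x axis) in the 4 FoxO pairs (coloured symbols), with the limma difference of FoxO against EV ± SE (black). IGFBP1 lies at 1.31 to 8.42, IGFBP3 at -1.64 to -0.97, and the IGFBP2 symbols fall on both sides of 0.

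IGFBP3, the main IGF carrier in blood, where it forms a complex with IGF and the acid-labile subunit (IGFALS), was bright in every array. In RCC4 its level with vehicle and then with 4OHT was 12.79 and 12.68 in EV, 12.96 and 11.30 in FoxO1, and 12.84 and 11.76 in FoxO3. In UMRC2 it was 14.47 and 14.41 in EV, 14.25 and 12.84 in FoxO1, and 14.30 and 12.60 in FoxO3. Within each line both FoxO arrays with 4OHT lie below all 4 of the other arrays.

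Relative to EV, IGFBP3 was lower in 4 of 4 FoxO pairs, by log2 differences of -1.55 and -0.97 in RCC4 and -1.35 and -1.64 in UMRC2 for FoxO1 and FoxO3. A difference below 0 in all 4 pairs was found for 20.7% of genes tested. The fitted difference of FoxO against EV was -1.38 ± 0.17 (limma, adjusted p = 0.00719), or 2.60-fold lower. For FoxO3 it was -1.30 ± 0.20 (adjusted p = 0.00577). For FoxO1 it was -1.45 ± 0.20 (adjusted p = 0.0608), just short of the threshold. The call for FoxO is lost without the UMRC2 EV pair (-1.26, adjusted p = 0.0594); without the RCC4 FoxO3 pair it is -1.57 (adjusted p = 0.000772). FoxO1 passes without the RCC4 FoxO3 pair (adjusted p = 0.00258) or the UMRC2 FoxO3 pair (adjusted p = 0.00162), at the same -1.45. Both the IGFBP1 and the IGFBP3 call rest on a limma prior variance that follows the mean level: with a constant prior the adjusted p under FoxO was 0.213 for IGFBP1 and 0.165 for IGFBP3, and with a prior following the mean response, the version fitted first, it was 0.533 and 0.221. With no filter on dim genes the adjusted p of IGFBP3 was 0.169.

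A second IGFBP3 probe set was also above background in all 12 arrays. Its responses relative to EV were -1.22 and -0.58 in RCC4 and -1.43 and -1.46 in UMRC2, again for FoxO1 and then FoxO3. All 4 have the sign of the main probe set, as the plot of the brighter IGFBP probe sets shows.

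**Figure D3:**
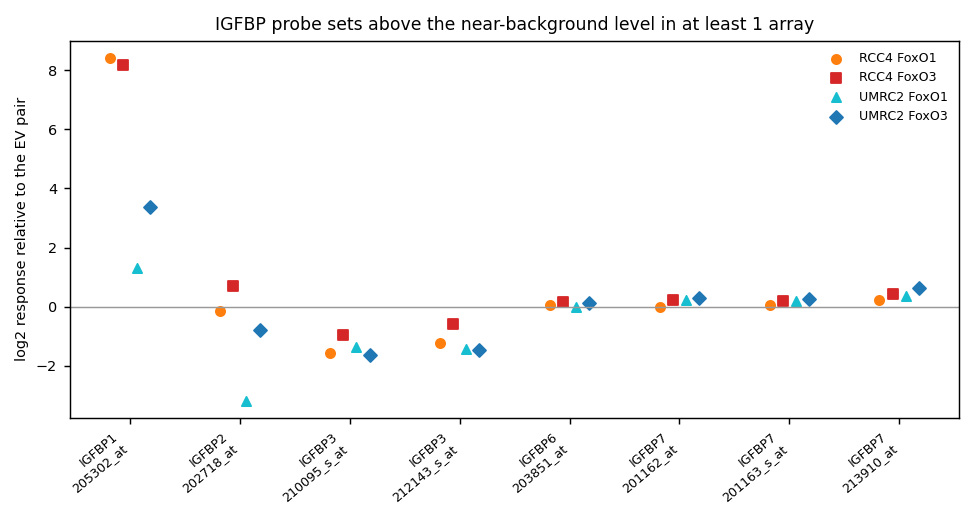
Log2 response to 4OHT minus the EV response of the same line (y axis) for each IGFBP probe set above the near-background level in at least 1 array (x axis), 1 symbol per FoxO pair. The IGFBP3 pair of probe sets lies below 0 in all 4 pairs, and the 3 IGFBP7 probe sets lie at -0.02 to 0.63.

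The stretches just upstream of 2 members are shown. IGFBP3 fell with FoxO, and IGFBP6 is the only one of the 5 members searched with letters of a FoxO motif there. The 250 bases before the start of each gene, from RefSeq on GRCh38.p14, were searched on both strands for the FoxO-type motif GTAAACA and for its relatives ATAAACA as well as CAAAACA. Entries were found for 5 of the 7 members, with none for IGFBP1 and IGFBP7, so whether those 2 hold a motif is not known here. IGFBP3 (chr7:45921273-45921522, minus strand) holds none of the 3 motifs and is 76% G or C. IGFBP6 (chr12:53097417-53097666, plus strand) holds GTAAACA once, in capitals below, 186 to 180 bases before the start.
IGFBP3: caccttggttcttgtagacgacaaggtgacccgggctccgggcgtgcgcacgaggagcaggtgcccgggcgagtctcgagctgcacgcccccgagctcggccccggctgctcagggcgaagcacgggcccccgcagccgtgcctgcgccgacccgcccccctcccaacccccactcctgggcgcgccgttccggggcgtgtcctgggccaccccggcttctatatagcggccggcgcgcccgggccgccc
IGFBP6: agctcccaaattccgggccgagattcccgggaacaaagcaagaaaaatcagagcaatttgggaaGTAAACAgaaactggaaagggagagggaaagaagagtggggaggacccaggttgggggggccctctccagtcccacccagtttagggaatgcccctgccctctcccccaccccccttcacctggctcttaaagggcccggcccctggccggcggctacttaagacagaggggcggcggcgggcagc
Of 35114 promoters of the same length, the motif GTAAACA occurs in 2.98%, the relative ATAAACA in 3.77%, the relative CAAAACA in 4.3% and any of them in 10.4%. A match describes the letters only and is not a measured binding site.

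IGFBP2, which binds both IGFs and carries an integrin-binding motif, was above the near-background level in RCC4 only. Its RCC4 levels with vehicle and 4OHT were 9.49 and 9.28 in EV, 9.68 and 9.34 in FoxO1, and 9.45 and 9.93 in FoxO3. In UMRC2 they were 4.20 and 6.07 in EV, 5.68 and 4.37 in FoxO1, and 4.20 and 5.29 in FoxO3, all near background. The FoxO pairs relative to EV were -0.14 and 0.69 in RCC4 and -3.18 and -0.78 in UMRC2, the last 2 between near-background values. The fitted difference of FoxO against EV was -0.85 ± 0.60 (limma, adjusted p = 0.457).

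IGFBP4, a substrate of PAPPA, read 4.60 to 7.12 and was near background in all 12 arrays. IGFBP5, which like IGFBP3 can form the complex with IGFALS, read 5.80 to 7.31, and none of its 6 probe sets rose above the near-background level in any array. Their differences of FoxO against EV were 0.17 ± 0.82 and -0.01 ± 0.54, and neither passed. A change in either gene was not detectable at this signal.

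IGFBP6, which prefers IGF2 over IGF1, was detected in every array. Its RCC4 levels with vehicle and 4OHT were 11.02 and 11.06 in EV, 10.80 and 10.90 in FoxO1, and 10.92 and 11.10 in FoxO3. In UMRC2 they were 10.25 and 10.30 in EV, 9.85 and 9.89 in FoxO1, and 9.71 and 9.87 in FoxO3. The lines do not overlap, and within a line 4OHT moved the level by at most log2 0.19. The difference of FoxO against EV was 0.08 ± 0.16 (limma, adjusted p = 0.833).

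IGFBP7, a family member with low affinity for IGFs that binds to the matrix, was bright in all arrays at 13.86 to 14.50. Its RCC4 levels with vehicle and 4OHT were 13.86 and 13.89 in EV, 14.04 and 14.06 in FoxO1, and 13.95 and 14.22 in FoxO3. In UMRC2 they were 14.04 and 14.06 in EV, 14.26 and 14.50 in FoxO1, and 14.15 and 14.48 in FoxO3. The FoxO3 array with 4OHT is the highest RCC4 array, and both UMRC2 FoxO arrays with 4OHT top that line. Against EV the difference was 0.18 ± 0.08 for FoxO (limma, adjusted p = 0.251) and 0.27 ± 0.10 for FoxO3 (adjusted p = 0.111), so neither passed. Between the 4OHT arrays alone, with vehicle left out, IGFBP7 did pass, at 0.34 ± 0.08 for FoxO (limma, adjusted p = 0.0408) and 0.37 ± 0.09 for FoxO3 (adjusted p = 0.0294). There 10.9% and 20.5% of all genes passed. That comparison also takes in the difference present with vehicle, a mean of 14.10 in the fusion lines against 13.95 in EV, so it does not measure the response to 4OHT alone.

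Single pairs carry no test and were read by the count of genes at least 2-fold apart. In RCC4 FoxO1, 1 IGFBP was at least 2-fold higher with 4OHT (IGFBP1) and 1 was lower (IGFBP3), against 4.13% and 3.87% of genes tested. In RCC4 FoxO3 these were again IGFBP1 and IGFBP3, against 9.9% and 12.2%. In UMRC2 FoxO1, 0 of 7 were 2-fold higher (4.48% of genes) and 2 were 2-fold lower (4.32%), IGFBP3 and the near-background IGFBP2. In UMRC2 FoxO3, 2 were higher (8.67% of genes), the near-background IGFBP1 and IGFBP2, and IGFBP3 was lower (10.9%). The EV pairs also had 1 gene each at least 2-fold higher, both near background: IGFBP1 in RCC4 (2.81% of genes) and IGFBP2 in UMRC2 (3.08%). No IGFBP was 2-fold lower in an EV pair, where 2.38% and 2.47% of genes did. Relative to EV, IGFBP1 alone was at least 2-fold higher in all 4 FoxO pairs (0.742% of genes). In UMRC2 these are differences between near-background values, and the FoxO1 pair itself differed by 0.94 with 4OHT. IGFBP1 also entered the test only through FoxO arrays with 4OHT, so the count is no support for a change in UMRC2. For 2-fold lower in all 4 pairs the count was 0 of 7 (0.595%), since IGFBP3 stood at -0.97 in RCC4 FoxO3. A difference above 0 in all 4 was found for IGFBP1 and for 15.7% of genes.

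FoxO3 and FoxO1 were also compared with each other, and 0 of the 7 IGFBPs passed in limma, none with an unadjusted p under 0.05 (5.82% of genes tested passed). The difference was 0.91 ± 1.43 for IGFBP1, 0.15 ± 0.20 for IGFBP3 and 1.61 ± 0.69 for IGFBP2 (adjusted p = 0.779, 0.748 and 0.231). For IGFBP2 the UMRC2 part of it lies between near-background values. With errors of this size, a difference between the isoforms in IGFBP1 could not be resolved. 4OHT in EV cells called 0 of the 7 genes, none with an unadjusted p under 0.05, and 0% of all genes. The fusions with vehicle, compared with EV with vehicle, also called 0 of 7 (0% of all genes). There IGFBP7 (0.16 ± 0.04, adjusted p = 0.627) and IGFBP6 (-0.32 ± 0.11, adjusted p = 0.675) were the 2 with an unadjusted p under 0.05, and IGFBP1 was at 0.16 ± 0.82.

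Before 4OHT the lines differed most plainly in IGFBP3 and IGFBP6, detected in both lines, and in IGFBP2, above the near-background level in RCC4 only. Over the 3 vehicle arrays of each line, 6 of 7 IGFBPs passed the test of RCC4 against UMRC2, 3 higher and 3 lower, where 51.4% of all genes passed (27.4% higher, 24% lower). The engineered lines of a cell line stand as its replicates here, so the p-values measure the spread between them. IGFBP2 reached the level needed for testing only in the RCC4 arrays, so its call is not independent of the filter. With no filter on dim genes its adjusted p was 0.00134 in limma. IGFBP2 was at 9.54 ± 0.13 in RCC4 and 4.70 ± 0.85 in UMRC2 (SD, n = 3; limma adjusted p = 1.6e-05), at least 3.24-fold higher in RCC4 when the near-background level is taken for UMRC2. IGFBP3 went the other way, at 12.86 ± 0.09 in RCC4 and 14.34 ± 0.12 in UMRC2 (SD, n = 3; limma adjusted p = 6.86e-07), or 2.78-fold lower in RCC4; as deposited the log2 difference was -0.59 in place of -1.48. IGFBP6 was log2 0.97 ± 0.14 higher in RCC4 (limma, adjusted p = 0.000401), and 1.69 higher as deposited.

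IGFBP4 (-1.28 ± 0.44, limma adjusted p = 0.0384) and IGFBP5 (0.92 ± 0.30, adjusted p = 0.0324) also passed, though both lie near background in every array. Each reached the level needed for testing only in arrays of the line where it is called higher, so neither call counts as support for a line difference. IGFBP7 was -0.20 ± 0.07 (adjusted p = 0.0342) with quantile normalisation, but 0.11 with arrays scaled to a common median and 0.76 as deposited, so its direction depends on the scaling. IGFBP1 did not pass (-0.35 ± 0.66, adjusted p = 0.694). Without the RCC4 FoxO3, the UMRC2 FoxO1 or the UMRC2 FoxO3 array, 3 of the 7 passed, namely IGFBP2, IGFBP3 and IGFBP6 each time.

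The proteins that IGFBPs work with were followed through a list of 22 genes of the IGF axis, of which 18 were tested. Under FoxO, 1 rose and 1 fell (2 of 18, where 7.79% of all genes passed), with a median of 0.12 beside -0.05 over all genes. IGF1R, the receptor whose ligand IGFBPs hold back, rose by log2 1.22 ± 0.16 (limma, adjusted p = 0.00827). SHC1, an adaptor downstream of the receptor, fell by 0.49 (adjusted p = 0.046). IGF1R was at 9.53 and 9.38 in RCC4 EV with vehicle and 4OHT, 9.40 and 10.17 with FoxO1, and 9.56 and 11.18 with FoxO3, and it was higher with 4OHT in all 4 FoxO pairs.

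Under FoxO3 alone 4 of the 18 rose and 2 fell, where 6.61% of all genes rose and 10% fell. IGF1R (1.66 ± 0.19), the insulin receptor INSR (1.25 ± 0.28), the receptor substrate IRS1 (1.63 ± 0.36) and PAPPA (2.96 ± 0.66) were higher, with limma adjusted p between 0.00229 and 0.0229. SHC1 and STC1, a stanniocalcin known to inhibit PAPPA, were lower at -0.75 ± 0.13 and -1.48 ± 0.36. In UMRC2 with vehicle, PAPPA read 5.03 to 6.27 and IRS1 6.79 to 7.29, all near background. STC1 was near background in RCC4 FoxO3 with 4OHT (6.92). The exact size of the PAPPA, IRS1 and STC1 differences is therefore not interpretable. Under FoxO1 alone 0 of 18 passed in limma, with 1 (IGF1R) at an unadjusted p under 0.05. IGF1R was the 1 gene of the 18 that differed between FoxO3 and FoxO1 (0.90 ± 0.19, limma adjusted p = 0.0366), where 5.82% of all genes passed. Without the RCC4 FoxO3 pair, SHC1 lost its call under FoxO (-0.46, adjusted p = 0.0523), IRS1 (1.36, adjusted p = 0.14) and STC1 (-1.16, adjusted p = 0.111) lost theirs under FoxO3, and IGF1R no longer differed between the isoforms past the threshold (0.87, adjusted p = 0.0942). IGF1R under FoxO and FoxO3, and INSR, PAPPA and SHC1 under FoxO3, passed without it. IGF1 was near background in all 12 arrays (FoxO against EV 1.93 ± 0.99, adjusted p = 0.304), and the scavenger receptor IGF2R was at 0.26 ± 0.14 (adjusted p = 0.324).

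**Figure D4:**
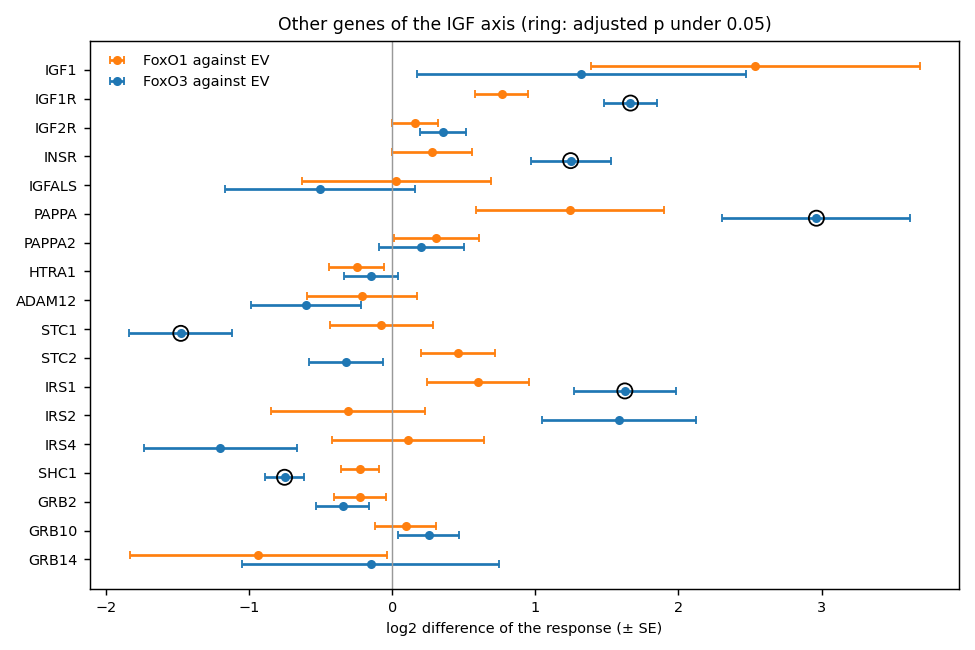
Limma log2 difference of the response ± SE (x axis) for the 18 tested genes of the IGF axis (y axis), FoxO1 against EV in orange and FoxO3 against EV in blue; both share the EV arrays, and rings mark an adjusted p under 0.05. All 6 rings are on FoxO3 values, 4 above 0 and 2 below.

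Among 12 genes whose proteins share the N-terminal IGFBP-type domain, 9 were tested and 2 rose under FoxO, where 3.09% of all genes rose. These were CCN2, a matrix-associated growth regulator (3.97 ± 0.61, limma adjusted p = 0.0127), and the membrane protein CRIM1 (0.52 ± 0.11, adjusted p = 0.0338). Both also passed without the RCC4 FoxO3 pair (3.73 and 0.55). In RCC4, CCN2 was near background in the EV arrays and in the FoxO lines with vehicle (5.86 to 6.83). The exact size of its difference is therefore not interpretable. Of 5 cell surface partners of IGFBPs (ITGA5, ITGB1, TMEM219, LRP1 and CD93), 0 passed under FoxO in limma, and 0 had an unadjusted p under 0.05.

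The genes most like each member over the 12 arrays were taken by Pearson correlation of the log2 level, as a description, since the arrays share lines and constructs. For IGFBP1 they were MFN1 (r = 0.97), C2CD4A (0.93) and SGPL1 (0.93). C2CD4A spanned log2 5.86 over the arrays, while MFN1 and SGPL1 spanned 0.96 and 0.97. For IGFBP3 they were FHL2 (0.98), DCBLD2 (0.97) and EVA1A (0.97). Each was lower relative to EV in all 4 FoxO pairs, as were 20.7% of genes tested, and a choice by likeness to IGFBP3 favours such genes. IGFBP2 was most like ETFB, HSD17B10 and LINC02593 (0.98 to 0.99), and IGFBP6 most like DZIP3, MICOS10 and LSM3 (0.98 to 0.995). IGFBP7 was most like DIP2C, PPP1R14C and PDGFRL (0.96 to 0.97). For the near-background IGFBP4 (TNFRSF11B, S1PR3 and YRDC) and IGFBP5 (KCNQ3, SLC11A1 and VPS35L) r ran from 0.88 to 0.97.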

How the data were processed

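The authors deposited a linear intensity for each probe set, made with MAS5 per the submitters' processing notes; no version is given in the sources used here. The arrays were quantile-normalised, floored at the 20th percentile (intensity 18.43) and put on the log2 scale. Each gene was read from its brightest probe set with 1 symbol, and genes reaching the array median (log2 6.67) in at least 2 arrays were tested. Limma 3.58.1 (R 4.3.3) fitted the 12 arrays with a term per pair and terms for the response, leaving 2 residual degrees of freedom; its prior variance (5.44 degrees of freedom) followed the mean level. The planned wording did not say what the prior should follow. The version following the mean response was run first and called 0 genes; the mean level was then chosen after that was seen. All p-values are two-sided and Benjamini-Hochberg adjusted across the genes tested, with 0.05 as the threshold. For the construct comparisons the p-values measure the spread between the lines. For the FoxO response in RCC4 against UMRC2 they measure the spread between FoxO1 and FoxO3 pairs. For RCC4 against UMRC2 with vehicle they measure the spread between engineered lines. None measures the spread between repeat cultures, and the number of arrays limits the precision. Named are all members, the 3 genes most like each, listed genes that passed in the FoxO comparisons, and the ligands and receptors tested. Of the listed genes that passed between the lines only a selection is named. The ligand IGF2 had no probe set annotated to it alone. INS was at the floor in all 12 arrays, and neither INS nor the insulin receptor-related INSRR was tested. The members and lists were chosen with earlier results of these data known. Alternatives covered scaling, floor, filter, probe set, prior, the 4OHT arrays alone and leaving out each pair.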

Additional observations from a re-analysis of the deposited data

How the results depend on the processing

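The number of IGFBPs past the threshold under FoxO against EV was 2, and became 0 without the filter on dim probe sets, 0 with a constant prior variance, 1 with a mean over each gene's probe sets and 1 with the second brightest probe set. The 4OHT arrays alone gave 3 for FoxO and 3 for FoxO3, with IGFBP7 beside IGFBP1 and IGFBP3, where 10.9% and 20.5% of all genes passed. A prior variance following the mean response, the version fitted first and set aside after its result was seen, gives 0 of 7 and 0 of 14283 genes (2718 at an unadjusted p under 0.05, limma), with IGFBP1 at 5.32 ± 4.19 (adjusted p = 0.533) and IGFBP3 at -1.38 ± 0.36 (adjusted p = 0.221). A constant prior also calls 0 genes, so both calls depend on a prior that follows the level. For FoxO3 against EV the count of 2 became 1 as deposited, 0 without the filter, 1 and 1 with the mean and the second probe set, 0 with a constant prior and 0 with the prior following the mean response. For FoxO1 against EV the count of 0 became 1 as deposited (IGFBP1) and 1 with a common median (IGFBP3). For RCC4 against UMRC2 the count of 6 became 2 with the second brightest probe set, where only 2 members are tested. Leaving out 1 pair gave 1 to 2 under FoxO, 0 to 1 under FoxO1, 1 to 2 under FoxO3 and 3 to 5 between lines.

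Over all genes, FoxO against EV called 1113 genes, 184 as deposited, 577 with the mean of probe sets, and 172 to 1631 when 1 pair was left out. The direction of IGFBP1 (2.34 to 8.30) and of IGFBP3 (-1.66 to -1.17) under FoxO was the same in every alternative fitted. The line difference in the IGFBP3 response turned to -0.091 as deposited, and leaving out 1 pair gave -0.059 to 0.52, the lowest without RCC4 FoxO3. IGFBP7 between the lines turned to 0.76 as deposited and 0.11 with a common median. As deposited, the median of all genes shifted from -0.05 to -0.31 under FoxO and from 0.06 to 0.77 between the lines. Apart from the smaller number of genes or arrays under some settings, the cause of these changes was not tested. The fit pairs vehicle and 4OHT within each engineered line; a block by replicate number could not be fitted, since the labels carry no such numbers and each group has 1 array. Signal limits IGFBP4, IGFBP5, UMRC2 IGFBP1 and UMRC2 IGFBP2, which lie near background.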

Other observations

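Genes around the IGFBPs were also compared between the lines before 4OHT. Whether they differ between the lines more often than other genes was not tested. Of 18 tested genes of the IGF axis, 6 were higher and 6 lower in RCC4 than in UMRC2 with vehicle, where 27.4% of all genes were higher and 24% lower (51.4% in all). Only some of the genes that passed are named. PAPPA (2.75 ± 0.33, limma adjusted p = 0.000158) was higher in RCC4. IGF1R (-1.56 ± 0.12, adjusted p = 1.46e-05), the receptor substrate IRS2 (-4.13 ± 0.10, adjusted p = 3.46e-08) and ADAM12, a protease known to cut IGFBP3 and IGFBP5 (-4.83 ± 0.13, adjusted p = 4.17e-08), were lower. All 4 tests compare 3 vehicle arrays of each line. Of the 5 cell surface partners, 4 were lower in RCC4 (24% of all genes were), among them LRP1 (-2.69 ± 0.21, adjusted p = 1.37e-05), a receptor reported to bind IGFBP3. With vehicle, PAPPA was near background in every UMRC2 array, and ADAM12 and LRP1 were near background in every RCC4 array. For PAPPA, ADAM12 and LRP1 the exact size of the line difference is therefore not interpretable.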
